A study of Mus musculus with 42 samples.

Results

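Proximal tubule RNA was set against total kidney RNA of the same state, 5 days after ligation of a ureter. The proximal tubule fraction (PT) is the RNA held by beads that carry antibodies against GFP, and its counterpart is RNA of the whole tissue (Total). Libraries were chosen by their label alone: 7 PT libraries of day 5 (3 from females, 4 from males) and 7 Total libraries of day 5 (3 from females, 4 from males), which is 14 of the 42 libraries of the series. The others came from contralateral kidneys, whose day is not given, and from kidneys at day 10, with 7 PT and 7 Total libraries in each state. All were made from the renal cortex of mice aged 12 weeks. The labels do not say whether Total is the unbound part of the same lysate, and the strain and the promoter that drives the GFP tag are not given in the sources used here. Nothing in the labels says that replicates came from separate animals, so each p-value measures only the spread between these libraries, which may be technical.

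The proximal tubule reabsorbs most of the filtered glucose, phosphate, amino acids and protein, and it secretes organic anions and cations through carriers on its blood side. Translating ribosome affinity purification pulls down a tagged ribosomal protein from 1 cell type together with the messenger RNA that its ribosomes are reading, so a gene of that cell type is enriched in the bound fraction and a gene of other cells is depleted. Ligation of a ureter raises the pressure in the tubule. Proximal tubule cells then lose carriers and oxidative metabolism and switch on injury genes such as Havcr1, while macrophages and matrix-producing fibroblasts build up around them.

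The PT libraries held 12.5 to 21.1 M counts (median 17.6 M) and the Total libraries 10.2 to 23.8 M counts (median 15.96 M). Between 17691 and 18729 genes had a count in a PT library, against 19164 to 21270 genes in a Total library. Mitochondrially encoded RNA made up 0.00917 to 0.0172% of the counts in PT and 0.663 to 2.17% in Total. Lars2, whose counts can include stray ribosomal RNA reads, stood at 11764, 13026 and 26523 CPM in male PT 1, male PT 4 and female PT 3 and between 2861 and 3607 CPM in the other 4 PT libraries. In Total it was 1879 and 1988 CPM in male Total 1 and 2 and 5865 to 9959 CPM in the other 5. The split went beyond this gene. Chi-square per gene between libraries of a group was 17.5 to 33.3 in some pairs and 85.8 to 147 in all others. The closer pairs were male PT 1 and 4, male PT 2 and 3, male Total 1 and 2, and male Total 3 and 4. So were female PT 1 and 2 and female Total 1 and 2, only the last not following Lars2. Low Lars2 occurred in female PT but not female Total, so in females it was partly confounded with fraction.

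Levels are counts per M counts (CPM) on library sizes scaled by the trimmed mean of M values (TMM), and 3 values in a row are the lowest, the median and the highest of 7 libraries. A difference is the log2 of PT over Total ± standard error, with females and males at equal weight. A gene was called where it differed by at least 2-fold with a p under 0.05 in edgeR's quasi-likelihood test, adjusted by Benjamini and Hochberg over all genes tested.

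At 2-fold or more, more genes were lower than higher in day 5 PT RNA against day 5 Total RNA. Of 17110 genes tested, 688 were higher in PT (4.02%) and 4077 were lower (23.8%), so 27.8% were called. Every day 5 count for a list below is to be read against these shares. Without the fold threshold 3873 genes were higher and 5289 lower. The count of higher genes depended on which library was left out. Without male PT 1, male PT 4 or female PT 3 it was 672, 715 and 741, and the median difference over all genes was 0.003 to 0.017. Without any other single library it was 927 to 1171, and that median was 0.09 to 0.13, so 688 lay near the low end. Whether the shift in scaling moved the count was not tested. No called gene was 16-fold higher, while 1245 were at least 16-fold lower. Only 16 were 4-fold higher, against 2913 that were 4-fold lower. In 1123 genes (6.56%) all 7 PT libraries lay above all 7 Total libraries, and in 3252 genes (19%) all 7 lay below. The median difference over all genes was 0.01 with TMM scaling and -0.25 when library size alone was used, where 229 genes were higher and 4607 lower. At an unadjusted p under 0.05, 9984 genes (58.4%) differed.

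**Figure D1:**
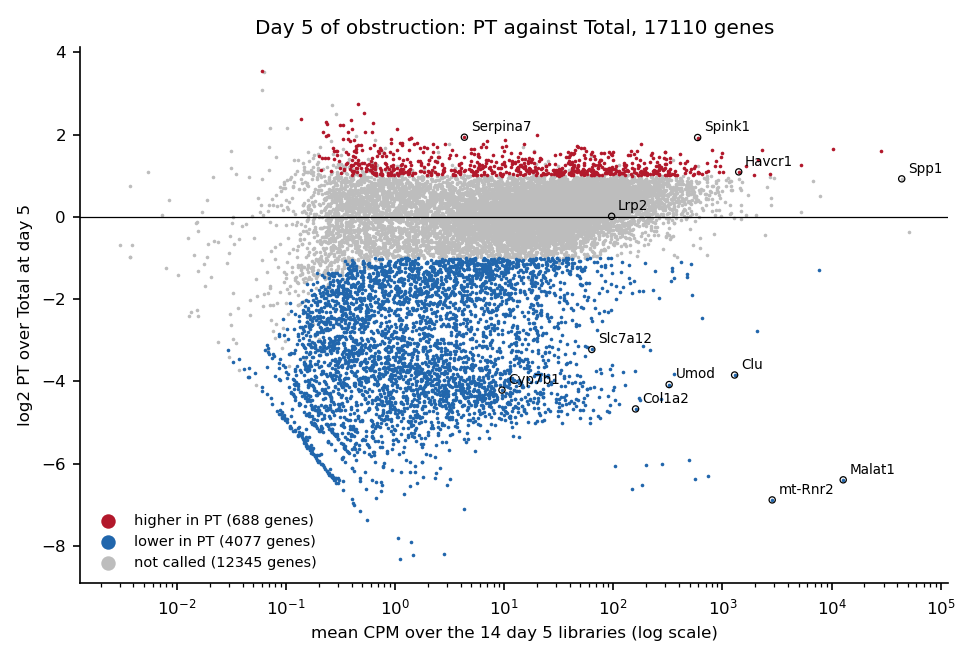
Each point is 1 of the 17110 genes, with its mean CPM over the 14 day 5 libraries on the x axis (log scale) and its log2 difference of PT over Total on the y axis; red marks the 688 genes called higher in PT, blue the 4077 called lower and grey the rest. The red points stay low on the y axis while the blue points reach below -6, with mitochondrial mt-Rnr2 and nuclear Malat1 among the lowest of the abundant genes.

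Carriers of the first proximal segment were enriched in PT at day 5. Of 12 genes listed for that segment, 8 were higher and none lower, with a median difference of 1.11 against 0.01 over all genes. Slc34a1, the sodium-phosphate cotransporter of the brush border, had 444, 611 and 839.9 CPM in PT and 181, 263 and 355 CPM in Total, and the difference was 1.20 ± 0.21, adjusted p = 8.19e-06. Every PT library lay above every Total library. Slc5a2, the glucose carrier SGLT2, had 47.9, 63.8 and 101 CPM in PT, against 23.0, 29.7 and 43.8 CPM in Total (1.10 ± 0.22, adjusted p = 6.81e-05), again without overlap; 20.6% of its exon bases overlap a gene on the other strand, and the strand setting of the counting is not stated. The exit carrier for glucose, Slc2a2, stood at 55.6, 96.8 and 108 CPM in PT and 19.6, 34.3 and 47.9 CPM in Total (1.39 ± 0.18, adjusted p = 2.29e-08). Hnf4a, the nuclear receptor that sets much of the proximal tubule programme, had 213, 273 and 338 CPM in PT and 111, 154 and 186 CPM in Total (0.87 ± 0.13, adjusted p = 3.6e-07), so its 7 PT libraries lay above the 7 Total ones, yet the difference stayed under 2-fold. Without female Total 3 (1.06), male PT 3 (1.01) or male Total 1 (1.02) it was called.

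Later segments gave a mixed picture. Of 9 genes listed for the second segment, 2 were higher and 2 lower, the lower share being close to the 23.8% over all genes. Summed over that list, PT libraries held 3847 to 5010 CPM and Total libraries 1854 to 3477 CPM, without overlap. Slc22a6, the organic anion carrier OAT1, had 45.2, 103 and 237 CPM in PT, against 27.5, 46.6 and 104 CPM in Total (1.06 ± 0.25, adjusted p = 0.00059), with overlapping libraries; its difference was 0.90 without male PT 1 and the call was then lost. Slc13a3, which takes up dicarboxylates, was higher too (1.19 ± 0.29, adjusted p = 0.000726). None of 14 genes listed for the third segment was higher and 6 were lower, with a median of -0.57. The summed level of that list was 819 to 6066 CPM in PT (median 3762) and 1464 to 4280 CPM in Total (median 2772), with overlap. Slc7a12, an amino acid carrier, had only 8.56, 10.9 and 15.5 CPM in PT, against 49.7, 86.9 and 197 CPM in Total (-3.23 ± 0.49, adjusted p = 1.54e-06). The oxysterol hydroxylase Cyp7b1 stood at 0.366, 0.691 and 1.45 CPM in PT, against 4.13, 17.2 and 33.9 CPM in Total (-4.21 ± 0.43, adjusted p = 1.78e-10). Slc22a7, the organic anion carrier OAT2, is on the lists of both the second and the third segment and was lower in PT (-3.45 ± 0.66, adjusted p = 5.95e-05). Also lower were Slc22a13, an organic anion carrier of the second list (-2.49), and the aminotransferase Aadat (-1.86), the serpin Serpina1f (-2.56) and the organic anion carrier Slc22a19 (-1.61) of the third. For Slc7a12, Slc22a7 and Cyp7b1 no PT library reached the lowest Total library, so some genes listed for the proximal tubule were depleted from the fraction labelled proximal tubule. In contralateral kidneys Slc7a12 was at -3.25 and Cyp7b1 at -4.06, called lower there too.

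**Figure D2:**
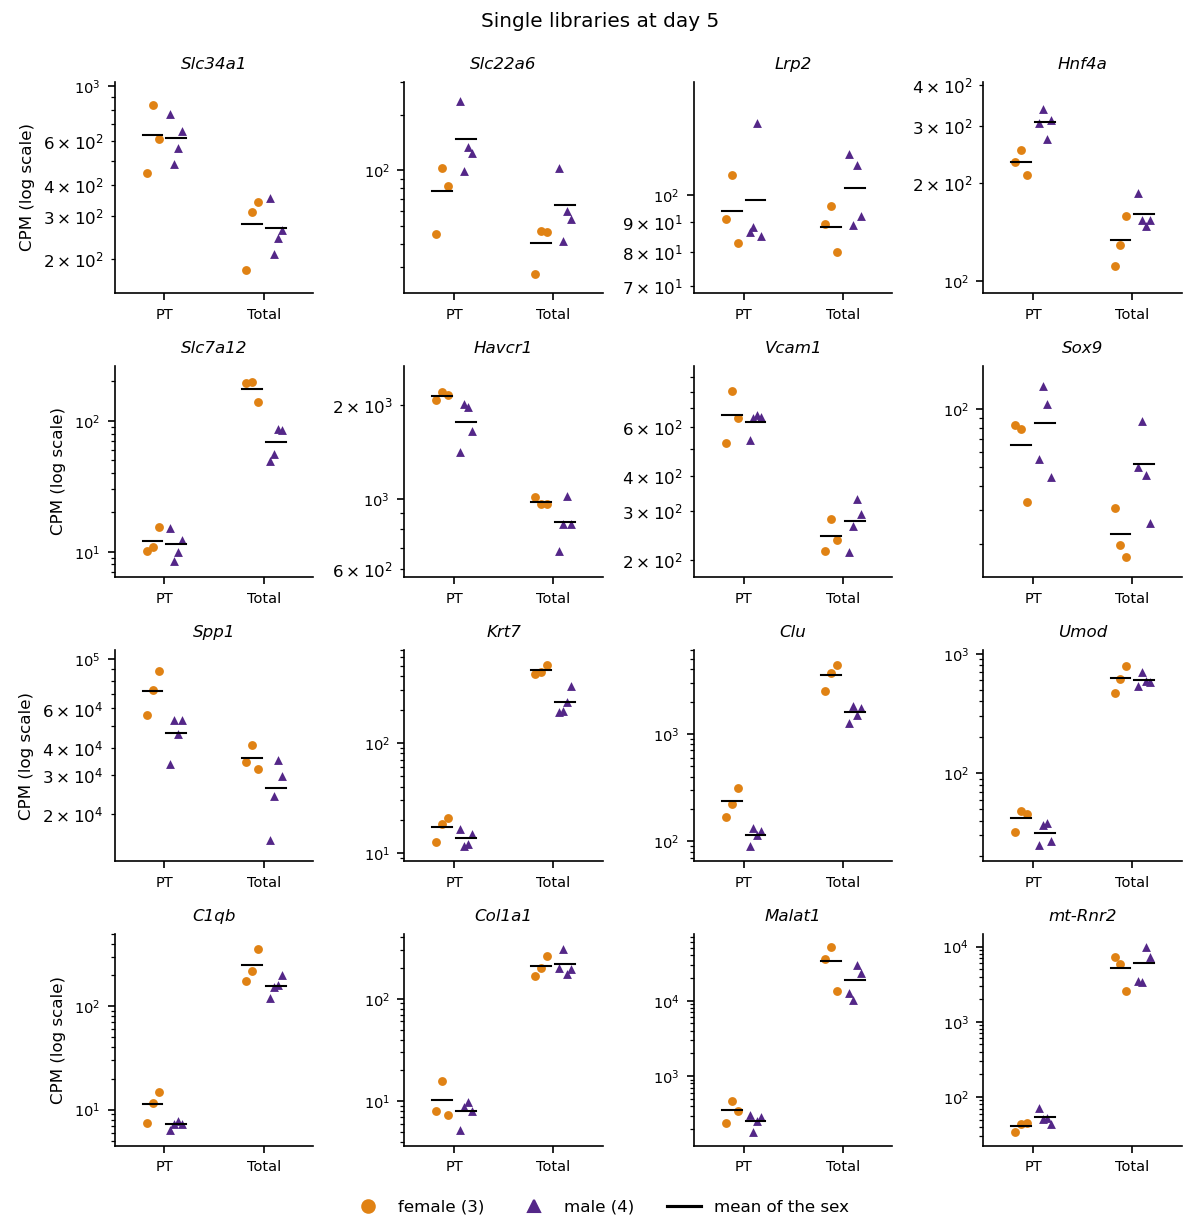
Single day 5 libraries for 16 genes, with CPM on a log y axis, PT left of Total in each panel, circles for 3 females, triangles for 4 males and a bar for the mean of each sex. Slc34a1, Havcr1 and Vcam1 lie higher in every PT library than in every Total library, Lrp2 does not differ by call, and Slc7a12, Krt7, Clu, Umod, C1qb, Col1a1, Malat1 and mt-Rnr2 lie lower in every PT library.

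Of 39 solute carriers and channels of the proximal tubule, 19 were higher in PT and 1, Slc22a13, lower (median 0.91). The organic anion carrier Slc22a8 (1.29 ± 0.41), the phosphate and urate carrier Slc17a1 (1.26 ± 0.16), the aquaglyceroporin Aqp7 (1.22 ± 0.30) and Slc34a1 were among the largest, all under 3-fold. Summed over the list, PT libraries held 4051 to 6441 CPM and Total libraries 1953 to 2774 CPM, so the ranges did not touch. The water channel Aqp1 did not pass the test, with 28.0, 44.7 and 70.8 CPM in PT and 30.6, 54.7 and 67.3 CPM in Total (-0.16 ± 0.21, adjusted p = 0.543). With library size alone as the scale, 3 of these genes were higher and 1 lower, and Slc34a1 (0.94), Slc5a2 (0.84), Slc22a6 (0.79) and Slc13a3 (0.93) were under 2-fold, all still above 0. In males alone Slc22a8 (1.13) and Aqp7 (0.79) were not called.

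The protein uptake machinery was barely enriched. Lrp2, the giant endocytic receptor megalin, had 82.8, 88.2 and 133 CPM in PT and 80.1, 92.3 and 118 CPM in Total (0.01 ± 0.20, adjusted p = 0.97). Its partner cubilin, Cubn, had 20.4, 23.2 and 33.6 CPM in PT and 19.7, 22.3 and 23.5 CPM in Total (0.23 ± 0.17, adjusted p = 0.264). Neither difference passed the test, and the libraries of both genes overlapped. Among 12 genes of this machinery, 2 were called, both higher in PT: Dab2, the adaptor that links megalin to clathrin (1.08 ± 0.16, adjusted p = 7.23e-07), and Amn, which brings cubilin to the surface (1.06 ± 0.32, adjusted p = 0.00656). Dab2 had 581, 747 and 1032 CPM in PT, against 291, 384 and 455 CPM in Total, without overlap; it was uncalled by library size alone (0.83) and in males alone (0.89), and Amn was 0.96 and uncalled without female PT 3.

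Metabolic enzymes of the proximal tubule were enriched about as much as its carriers. Of 39 tested, 14 were higher in PT and 2 lower (median 0.87), and the summed level was 14866 to 24583 CPM in PT and 7042 to 10702 CPM in Total. A pair of vitamin D enzymes led the list. Cyp27b1, which makes the active hormone, had 36.2, 82.2 and 134 CPM in PT, against 11.3, 20.3 and 49.7 CPM in Total (1.68 ± 0.51, adjusted p = 0.00596), and Cyp24a1, which breaks it down, had 38.6, 79.2 and 189 CPM in PT, against 19.3, 32.4 and 45.5 CPM in Total (1.53 ± 0.41, adjusted p = 0.00236). The PT and Total ranges overlapped for both, and in males alone neither was called, at 1.26 for Cyp27b1 and 1.14 for Cyp24a1. Myo-inositol oxygenase, Miox, was higher by 1.36 ± 0.33 and the glycine acyltransferase Glyat by 1.31 ± 0.16. The gluconeogenic enzymes G6pc (1.16) and Pck1 (1.09) were both higher, and the brush border proteases Mep1b (-2.91) and Dpep1 (-1.03) were lower, Dpep1 only just, since it was uncalled when any of 10 of the 14 libraries was left out (-0.99 to -0.73).

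Genes of fatty acid oxidation and the respiratory chain stood slightly above 0 in PT. Of 31 fatty acid oxidation genes 5 were higher and none lower (median 0.66), among them the fatty acid binding protein Fabp1 (1.80 ± 0.48), while the rate-limiting Cpt1a (0.14) and the coactivator Ppargc1a (-0.53) were not called. Fabp1 was not called in males alone, at 1.60. All 35 nuclear genes of the respiratory chain lay above 0 (median 0.66), yet only 4 were called: Sdhd (1.33), Ndufa4 (1.09), Ndufa1 (1.06) and Cox6b1 (1.06). With library size alone none of these 4 was called, Sdhd still being over 2-fold (1.08, adjusted p = 0.0823) and the others under it. None of 35 ribosomal protein genes (median 0.10) and none of 25 genes of the secretory pathway (median 0.18) was called; by library size alone the medians were -0.17 and -0.08.

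Among 20 transcription factors of the proximal tubule 1 was higher and 4 lower, close to the 4.02% and 23.8% over all genes. Nr1h4, the bile acid receptor FXR, had 133, 184 and 208 CPM in PT and 58.7, 74.3 and 82.0 CPM in Total (1.32 ± 0.13, adjusted p = 9.98e-11), without overlap. Among the lower ones were Nr0b2, a repressor that FXR switches on in liver (-5.98 ± 0.72), Sim2 (-3.78 ± 0.43) and Tfcp2l1, a factor of the collecting duct and distal tubule (-1.24 ± 0.12). Nr0b2 averaged 0.0473 CPM in PT and 1.55 CPM in Total, so its depletion is that of a rare RNA.

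The 15 largest enrichments without overlap within either sex, among genes with at least 5 CPM in a group of 1 sex, included plasma proteins, enzymes and genes with no given function. Serpina7, the thyroxine carrier of plasma, had 5.36, 6.48 and 8.83 CPM in PT, against 1.26, 1.78 and 2.30 CPM in Total (1.93 ± 0.38, adjusted p = 5.85e-05). Spink1, a secreted trypsin inhibitor, had 467, 1086 and 1337 CPM in PT, against 151, 231 and 432 CPM in Total (1.93 ± 0.35, adjusted p = 1.75e-05). Nr1i2, the xenobiotic receptor PXR, had 12.3, 15.2 and 20.1 CPM in PT, against 3.04, 4.32 and 6.20 CPM in Total (1.88 ± 0.17, adjusted p = 5.01e-12). For all 3 every PT library was above every Total library, and for Nr1i2 the standard error was the smallest of the 3. The acyl-CoA thioesterase Acot1 (1.72 ± 0.19), Fdx1, the electron donor of mitochondrial cytochromes P450 (1.70 ± 0.26), the bile acid conjugating enzyme Baat (1.70 ± 0.32), the defensin Defb36 (1.70 ± 0.25), the spindle adaptor Insc (1.70 ± 0.24) and the secreted phosphoprotein Spp2 (1.67 ± 0.33) followed. Genes known only by clone or predicted names made up the remaining 6 of the first 15: D630014O11Rik (1.83), Gm10845 (1.76), D630011A20Rik (1.72), 2010003K11Rik (1.70), Gm15883 (1.65) and 2210011C24Rik (1.64). Serpina7 and D630011A20Rik were nearly silent in contralateral PT, at 0.132 and 0.243 CPM on average. Of D630011A20Rik's exon bases 26.4% overlap Spaca7 on the other strand.

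Promoters of genes enriched in PT were searched for the binding motifs of HNF1 (the letters GTTAAT, any 1 base, then ATT) and HNF4 (the letters CAAAGTCCA), 2 factor families that proximal tubule cells share with liver. Both strands were read, over 250 bases before and 50 after each start in the RefSeq table of GRCm38.p6. HNF1 letters stood in 10 of 439 genes called higher that have a promoter there (2.28%), in 6 of 2702 called lower (0.222%), in 0.380% of all tested genes and in 0.470% of all 27025 genes of the table. HNF4 letters stood in 7 of 439 (1.59%), in 16 of 2702 (0.592%), in 0.582% of tested genes and in 0.555% of the table. These shares are a description with no test, and a match is not a shown binding site. The 4 promoters below belong to enriched genes and show where the letters lie, in capitals: the glucose-6-phosphatase gene G6pc (difference 1.16, adjusted p = 0.000149) and the hydroxyproline dehydrogenase gene Prodh2 (1.27, adjusted p = 0.000161) for HNF1, then the acetyltransferase gene Nat8 (1.51, adjusted p = 1.52e-07) and the brush border scaffold gene Pdzk1 (1.03, adjusted p = 3.68e-05) for HNF4. Each line is written 5′ to 3′ on the gene's own strand.
G6pc, chr11:101367466-101367765, plus strand: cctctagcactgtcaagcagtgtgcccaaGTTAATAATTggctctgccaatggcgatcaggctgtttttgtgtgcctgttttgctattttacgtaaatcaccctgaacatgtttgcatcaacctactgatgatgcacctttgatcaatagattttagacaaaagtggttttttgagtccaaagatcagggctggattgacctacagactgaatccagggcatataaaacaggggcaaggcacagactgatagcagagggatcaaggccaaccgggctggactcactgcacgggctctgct
Prodh2, chr7:30493408-30493707, plus strand: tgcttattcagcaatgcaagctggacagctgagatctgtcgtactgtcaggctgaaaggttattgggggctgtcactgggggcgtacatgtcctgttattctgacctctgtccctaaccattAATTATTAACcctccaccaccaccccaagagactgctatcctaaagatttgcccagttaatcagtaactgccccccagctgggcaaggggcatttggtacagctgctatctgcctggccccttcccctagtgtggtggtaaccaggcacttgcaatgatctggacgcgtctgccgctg
Nat8, chr6:85832230-85832529, minus strand: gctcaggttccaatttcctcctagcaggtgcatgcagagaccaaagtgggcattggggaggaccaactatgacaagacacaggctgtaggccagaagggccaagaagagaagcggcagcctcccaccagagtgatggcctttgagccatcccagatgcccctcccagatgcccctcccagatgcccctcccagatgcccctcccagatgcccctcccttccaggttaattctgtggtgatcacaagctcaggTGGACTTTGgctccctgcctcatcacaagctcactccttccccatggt
Pdzk1, chr3:96829815-96830114, plus strand: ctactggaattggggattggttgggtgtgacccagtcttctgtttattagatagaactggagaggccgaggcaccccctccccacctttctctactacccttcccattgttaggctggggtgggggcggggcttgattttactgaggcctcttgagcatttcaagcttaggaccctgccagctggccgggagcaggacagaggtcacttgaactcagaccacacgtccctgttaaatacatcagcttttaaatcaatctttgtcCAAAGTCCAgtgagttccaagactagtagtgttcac

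Injury genes of the tubule were called in both directions. Of 43 tested, 5 were higher in PT and 7 lower, with a median of 0.33. Over all genes 4.02% were higher and 23.8% lower, so this list had a larger share higher and a smaller share lower. Havcr1, the injury receptor KIM-1, had 1411, 2007 and 2187 CPM in PT and 685, 961 and 1021 CPM in Total (1.09 ± 0.21, adjusted p = 4.93e-05). Vcam1, an adhesion molecule that injured tubule cells display, had 526, 643 and 806 CPM in PT and 214, 266 and 330.3 CPM in Total (1.30 ± 0.20, adjusted p = 1.31e-06). In both genes every PT library lay above every Total library. Sox9, a factor of regenerating tubule cells, had 33.3, 79.1 and 132 CPM in PT and 17.2, 30.7 and 86.6 CPM in Total (1.11 ± 0.35, adjusted p = 0.00862), with wide and overlapping ranges. In males alone it was 0.70 and not called. In the 8 libraries with Lars2 over 5000 CPM, where female PT 3 is the only female PT library, it was also 0.70. Keratin 20, Krt20, was just over 2-fold (1.01 ± 0.43), and so was the fibrinogen chain Fgb (1.27 ± 0.52), whose call was lost without female PT 3 (1.08), female Total 1 (1.29) or male PT 4 (1.04). By library size alone Havcr1 was 0.84, Sox9 0.86 and Fgb 0.99, and 1 of the 43 was called higher and 8 lower.

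Spp1, the secreted glycoprotein osteopontin, was among the most abundant RNAs of both fractions, with 3.41 to 7.85% of all counts in PT libraries and 2.07 to 4.95% in Total libraries. On the CPM scale it had 33753, 53362 and 88086 in PT and 15407, 32175 and 40875 in Total (0.92 ± 0.24, adjusted p = 0.00134), overlapping and just short of 2-fold, and it passed 2-fold when any of 10 of the 14 libraries was left out (1.01 to 1.12). Traf1, a signalling adaptor that tumour necrosis factor induces, had 41.1, 50.5 and 58.9 CPM in PT and 24.6, 26.4 and 37.4 CPM in Total (0.84 ± 0.19, adjusted p = 0.000288), above in every PT library but also under 2-fold. Without female Total 3 (1.06) or female PT 2 (1.01) it was called.

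The 7 injury genes depleted from PT included 3 keratins. Keratin 7, Krt7, had 11.6, 14.9 and 20.8 CPM in PT, against 189, 324 and 506 CPM in Total (-4.41 ± 0.25, adjusted p = 2.65e-17). Clu, the secreted chaperone clusterin, had 90.2, 131 and 314 CPM in PT, against 1265, 1824 and 4377 CPM in Total (-3.85 ± 0.26, adjusted p = 1.43e-15). Lcn2, the siderophore-binding protein known as NGAL, had 9.16, 10.6 and 20.8 CPM in PT, against 89.9, 162 and 365 CPM in Total (-3.84 ± 0.32, adjusted p = 1.33e-12). These 3 genes lay lower in all PT libraries than in any Total library. Krt19 (-3.67 ± 0.28), the phospholipid-binding Anxa1 (-3.52 ± 0.27), Krt18 (-3.15 ± 0.26) and the growth factor Hbegf (-1.10 ± 0.24) were lower as well. Krt8, the usual partner of Krt18, was not called (-0.27 ± 0.18). In these bulk libraries fewer cells of a type and less RNA per cell cannot be told apart, so a level in Total does not say which cells hold the RNA.

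Markers of the distal nephron and collecting duct were depleted about as strongly as Krt7. Uromodulin, Umod, made by the thick ascending limb, had 24.8, 37.0 and 47.7 CPM in PT, against 471, 595 and 795 CPM in Total (-4.08 ± 0.22, adjusted p = 4.97e-18). Slc12a1, the limb's sodium-potassium-chloride carrier (-4.44 ± 0.31), and Slc12a3, the thiazide-sensitive carrier of the distal convoluted tubule (-4.61 ± 0.27), were also lower, and neither carrier's libraries overlapped. Of 11 limb markers 9 were lower (median -3.80), of 11 distal convoluted markers 8 (median -3.74), of 12 principal cell markers 11 (median -3.22) and of 14 intercalated cell markers 14 (median -4.50), with none higher. Aqp2, the vasopressin-regulated water channel of principal cells, was rare, with 0.148, 1.23 and 4.45 CPM in PT and 2.39, 6.37 and 18.6 CPM in Total (-2.03 ± 0.58, adjusted p = 0.0038), and its libraries overlapped; in females alone it was not called (-1.49). Atp6v1g3, a proton pump subunit of intercalated cells, had 2.51, 6.16 and 9.33 CPM in PT, against 66.3, 115 and 157 CPM in Total. In the same cells the bicarbonate carrier Slc4a9 (-4.72 ± 0.37) and the pump subunit Atp6v0d2 (-4.11 ± 0.24) were lower, as were the sodium channel subunits Scnn1b (-4.29 ± 0.26) and Scnn1g (-3.91 ± 0.23) of principal cells and the calcium-binding Calb1 (-4.14 ± 0.32) and the calcium channel Trpv5 (-4.16 ± 0.29) of the convoluted tubule. The tight junction gene Cldn10 (0.91), the matrix ligand Npnt of the principal cell list (-0.29) and the ageing suppressor Kl (0.22) were not called, though Cldn10 was when any of 9 libraries was left out (1.00 to 1.08). Summed markers of the limb stood at 200.05 to 253.4 CPM in PT and 810 to 1158 CPM in Total, much of the PT sum being Cldn10. No limb, convoluted tubule, principal or intercalated marker was at 0 in all PT libraries.

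Immune RNA was depleted from PT. C1qb, a complement chain made by macrophages, had 6.33, 7.44 and 14.9 CPM in PT, against 120.1, 177 and 358 CPM in Total (-4.47 ± 0.24, adjusted p = 3.29e-18). Lysozyme, Lyz2, had 10.4, 15.4 and 21.4 CPM in PT, against 197, 369 and 463 CPM in Total (-4.45 ± 0.29, adjusted p = 1.13e-15). Of 25 macrophage markers 23 were lower and none higher (median -4.36), and all 23 had every PT library below every Total library. Cd14 (0.32) and Plac8 (0.19) were not called, and the lysosomal glycoprotein Cd68 was depleted less than the list's median (-2.23 ± 0.25, adjusted p = 1.74e-09). The list was led by the chemokine receptor Cx3cr1 of resident macrophages (-5.00 ± 0.24), the leukocyte phosphatase Ptprc (-4.83 ± 0.23), the myeloid factor Spi1 (-4.77 ± 0.36) and Ccr2, the receptor of recruited monocytes (-4.70 ± 0.25). Ccr2 had 3.14, 4.11 and 6.56 CPM in PT, against 57.0, 135 and 157 CPM in Total. All 21 lymphocyte markers were lower (median -4.09), with the T cell receptor chain Cd3e at -3.55 ± 0.52, as were 8 of 9 tested neutrophil markers (median -4.13), with S100a8 at -4.36 ± 0.58. Summed macrophage markers came to 215 to 375 CPM in PT and 1185 to 2018 CPM in Total, lymphocyte markers to 7.11 to 13.4 CPM and 49.4 to 98.6 CPM, and neutrophil markers to 0.725 to 2.22 CPM and 15.3 to 28.8 CPM. The neutrophil granule genes Camp and Mpo were at 0 in all PT libraries and near 0 in Total. Haemoglobin RNA also lay higher in Total, and 6 of 9 tested erythrocyte genes were lower in PT and 1 higher: Hbb-bs had 0.29, 1.77 and 3.99 CPM in PT, against 5.96, 39.4 and 48.4 CPM in Total (-3.69 ± 0.64, adjusted p = 1.33e-05).

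Fibroblast and vessel RNA was depleted to a similar degree. Col1a1, a chain of collagen I, had 5.20, 8.07 and 15.6 CPM in PT, against 167, 199 and 307 CPM in Total (-4.56 ± 0.26, adjusted p = 2.08e-17). Pdgfrb, the receptor that marks pericytes and fibroblasts, had 1.80, 2.30 and 3.91 CPM in PT, against 42.4, 47.5 and 67.4 CPM in Total (-4.29 ± 0.21, adjusted p = 2.28e-19), and Pecam1, the endothelial adhesion molecule, 1.79, 2.59 and 2.74 CPM in PT, against 20.9, 30.8 and 36.5 CPM in Total (-3.61 ± 0.22, adjusted p = 1.85e-16). Of 24 fibroblast markers 22 were lower (median -4.20), including the smooth muscle actin Acta2 (-4.74 ± 0.27) of myofibroblasts, while Cspg4 (0.94) and Vim (-0.56) were not called. The fibroblast receptor Pdgfra (-4.67 ± 0.25), the collagen chain Col1a2 (-4.67 ± 0.23) and the smooth muscle myosin Myh11 (-4.70 ± 0.61) were lower too. Of 18 endothelial markers 17 were lower (median -3.94), Ramp2 being uncalled (0.16), and the receptor Flt1 (-4.23 ± 0.29), the cadherin Cdh5 (-4.14 ± 0.29) and endomucin, Emcn (-4.09 ± 0.26), were among the lowest. Of 8 juxtaglomerular and mesangial markers 6 were lower (median -3.81), and of 8 tested urothelial markers 4 were (median -2.67), from sums of 0.938 to 1.63 CPM in PT and 2.65 to 8.56 CPM in Total. Summed fibroblast markers came to 202 to 319 CPM in PT and 1379 to 1711 CPM in Total, of which Vim alone averaged 182 CPM in PT and 257 CPM in Total. Endothelial markers came to 46.8 to 65.3 CPM in PT and 348 to 473 CPM in Total.

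Podocyte genes stood nearer to 0 than those of the other cells, a difference between lists that was not tested. Of 14 markers 9 were lower, with a median of -1.29. Nphs1 encodes nephrin of the filtration slit and had 0.676, 1.40 and 1.71 CPM in PT and 2.17, 3.26 and 4.51 CPM in Total (-1.39 ± 0.29, adjusted p = 0.000138). All 7 PT libraries lay below all 7 Total libraries, yet the difference was only about the size seen for proximal tubule carriers in the other direction. The phosphatase Ptpro (-2.72 ± 0.33) and podocalyxin, Podxl (-2.15 ± 0.26), were further from 0. Wt1, the podocyte factor, was not called (0.27). In contralateral kidneys the median of the list was -1.65 and at day 10 it was -1.08.

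**Figure D3:**
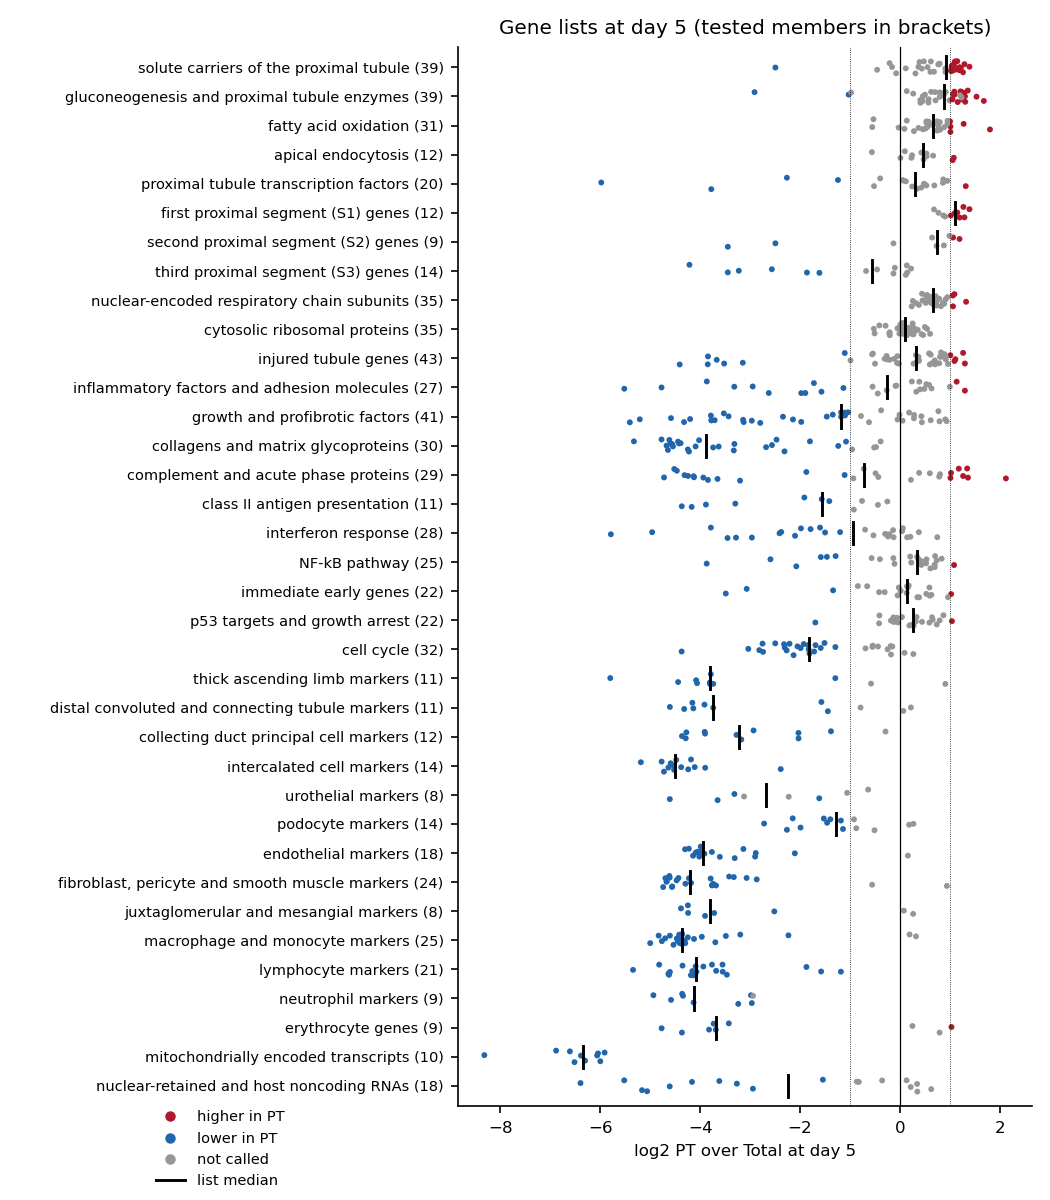
Log2 difference of PT over Total at day 5 (x axis) for each tested member of the lists named on the y axis, red for members called higher, blue for lower, grey for not called, with a black bar at the median. Carrier and metabolism lists centre near 0.9, the injury list spreads from 1.30 down to -4.41, and markers of immune, stromal, endothelial and collecting duct cells centre between -3.22 and -4.50.

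Matrix genes were depleted. Of 30, 26 were lower and none higher (median -3.88), from the basement membrane chain Col4a4 (-1.08) to lysyl oxidase, Lox (-4.77), and elastin, Eln (-5.33). The 4 left uncalled were Col4a3 (-0.39), Col18a1 (-0.52), Lama5 (-0.48) and Lamb1 (-0.96), all parts of basement membranes. The summed level was 540 to 831 CPM in PT and 2765 to 4475 CPM in Total, which did not overlap. Profibrotic growth factors and proteases followed with 25 of 41 lower and none higher (median -1.18), against 23.8% lower and 4.02% higher over all genes. Connective tissue growth factor, Ctgf (-2.80 ± 0.49), Tgfb1 (-1.34 ± 0.37) and Tgfb2 (-1.10 ± 0.20) were lower, whereas Pdgfb (0.62), Pdgfa (0.44), Plau (0.91) and Fgf1 (-0.01) were not called. Ereg and Fgf2 had no count in PT and were at least 10.1-fold and 11.3-fold lower there, on a floor of 3 counts over the 7 PT libraries, a bound that covers counting error only.

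Of 27 inflammatory factors and adhesion molecules, 2 were higher and 11 lower (median -0.26), against 4.02% higher and 23.8% lower over all genes. Higher were Vcam1 and the cytokine Mif (1.14 ± 0.22). Il34, a growth factor for macrophages, sat at the threshold (1.00 ± 0.22, adjusted p = 0.000272) without a call. Ccl2, the chemokine that draws monocytes, was not called (0.58 ± 0.23, adjusted p = 0.0317), nor were Cxcl1 (0.24), Cxcl10 (0.40), Cxcl16 (0.53) and Csf1 (-0.26). The alarmin Il33 (-3.87 ± 0.18) and fractalkine, Cx3cl1 (-2.63 ± 0.16), were lower, and so were Il1b (-4.77 ± 0.46), Tnfsf10 (-1.97 ± 0.26) and Cxcl12 (-1.57 ± 0.47). Il6 had 3 counts in all PT libraries together, and the ratio of Total over PT was 14.5, with a 95% counting interval of 4.68 to 72.6.

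Complement and acute phase genes went both ways: 7 of 29 were higher and 13 lower, against 4.02% and 23.8% over all genes. Apcs, serum amyloid P (2.12 ± 0.48), complement C2 (1.36 ± 0.17), the complement inhibitor Cfi (1.35 ± 0.19), the inter-alpha-trypsin inhibitor chain Itih3 (1.18 ± 0.24), Cfb (1.02 ± 0.33) and C4b (1.01 ± 0.37) were higher beside Fgb. Of C2's exon bases 42.8% are shared with Gm20547 on the same strand, so its value is uncertain. C3, the hub of the cascade, was not called (0.60 ± 0.20, adjusted p = 0.00974), nor was ceruloplasmin, Cp (0.38). The 3 C1q chains and the anaphylatoxin receptors C3ar1 (-4.72) and C5ar1 (-4.52) were lower. By library size alone 3 were higher and 13 lower.

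Over all genes 23.8% were lower and 4.02% higher. Among 11 genes of class II antigen presentation 7 were lower and none higher (median -1.57). H2-Aa (-1.91 ± 0.28) and H2-Eb1 (-1.57 ± 0.45) were lower, while the invariant chain Cd74, with a mean of 2113 CPM in PT and 2826 CPM in Total, was not called (-0.44). Costimulatory Cd86 (-4.17 ± 0.33) and the lysosomal protease Ctss (-4.37 ± 0.26), used by macrophages and dendritic cells, were depleted as much as the macrophage markers. Interferon-response genes were lower in 14 of 28 and higher in none (median -0.95), with Oas2 (-5.79), Mx1 (-4.96) and Ifi44 (-3.78) lowest, and Irf1 (0.14) and Ifit2 (0.04) uncalled.

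The NF-kB pathway had 1 of 25 genes higher and 6 lower (median 0.34), close to the shares over all genes (4.02% higher, 23.8% lower). The feedback inhibitor Tnfaip3 was just over 2-fold (1.08 ± 0.37, adjusted p = 0.013) and lost its call in males alone (0.70) and by library size alone (0.83). Relt (-3.87), Tnfaip2 (-2.59), the subunit Rel of lymphoid cells (-2.07) and the kinase Map3k8 (-1.58) were the lowest. Nfkbia (0.37), Rela (0.21) and Relb (0.61) were not called. Of 22 immediate early genes 1 was higher and 3 lower: Fosl1 (1.03 ± 0.31, with 57.2% of its exon bases shared with Ccdc85b on the other strand, and no call without female PT 3 or male PT 1, at 0.81 and 0.77), Klf2 (-1.34), Nr4a1 (-3.07) and Egr2 (-3.49). The higher share of the immediate early list was near the 4.02% over all genes, and its lower share was below the 23.8%. The median of the list was 0.14, and -0.11 by library size alone.

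Cell cycle genes were lower in 22 of 32 and higher in none (median -1.82). Mki67, the proliferation antigen, had 1.07, 1.92 and 4.13 CPM in PT and 10.8, 14.8 and 29.6 CPM in Total (-3.04 ± 0.45, adjusted p = 6.46e-07), without overlap. Top2a (-2.82 ± 0.43), Cdk1 (-2.05 ± 0.36) and Ccnd2, a cyclin of G1 (-4.37 ± 0.20), were lower. Genes of DNA replication were mostly uncalled, among them Pcna (0.09), Mcm2 (-0.15), Tyms (-0.18) and Rrm1 (-0.18). Of 22 p53 targets 1 was higher, the receptor Eda2r (1.04 ± 0.34), and 1 lower, Sesn1 (-1.69 ± 0.15), while the cell cycle inhibitor Cdkn1a was not called (0.74). That is near the 4.02% higher over all genes and below the 23.8% lower. Eda2r lost its call by library size alone (0.78), with upper-quartile factors (0.96), in males alone (0.61), in the fit of only the groups compared (1.00) and with Lars2 over 5000 CPM (adjusted p = 0.0711).

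Mitochondrially encoded RNAs and several nuclear noncoding RNAs were strongly depleted. Malat1, a long noncoding RNA of nuclear speckles, had 183, 284 and 469 CPM in PT, against 10209.8, 23342 and 51114 CPM in Total (-6.40 ± 0.39, adjusted p = 1.16e-16), 84.2-fold lower. The mitochondrial ribosomal RNA mt-Rnr2 had 34.4, 44.6 and 71.4 CPM in PT, against 2601, 5841 and 9786 CPM in Total (-6.88 ± 0.37, adjusted p = 3.66e-18), 118-fold lower. No PT library came near a Total library for either RNA. All 10 mitochondrially encoded RNAs tested were lower (median -6.34), and the labels name a postmitochondrial supernatant as the material given to the beads. How much of the depletion of mitochondrial or nuclear RNA came from that step was not tested. Among genes with at least 5 CPM in a group of 1 sex, the 15 largest depletions were all of RNAs of mitochondria or of noncoding type: 8 mitochondrial ones, Malat1, Mir143hg, the snRNA Gm24265 and 4 rare transcripts, BE692007 (-6.52), 6720427I07Rik (-6.38), Gm26740 (-6.36) and F630028O10Rik (-6.12). The mitochondrial set ran from the transfer RNA mt-Tp (-7.11) and mt-Rnr1 (-6.61) to the respiratory subunits mt-Nd1 (-6.38), mt-Cytb (-6.30) and mt-Nd4 (-6.04). Of 18 listed nuclear and host noncoding RNAs 10 were lower and none higher (median -2.24), though 8 were uncalled and 5 lay above 0. Of 11 histone genes 1 was higher and 3 lower (median 0.09), the lower share being near the 23.8% over all genes. Neat1, another nuclear RNA, was at -3.62 ± 0.31, and 13 of 17 snoRNAs and 7 of 10 snRNAs were lower. The snRNA Gm24265 had no PT count and 306 Total counts and was at least 88.6-fold lower on the same floor, and mt-Nd3 with 342 Total counts was at least 99.04-fold lower. Mir143hg, the host of a smooth muscle microRNA, had 2 PT counts and 807 Total counts, a ratio of Total over PT of 351 with a 95% counting interval of 96.7 to 2899.

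Long noncoding RNAs were called lower more often than coding genes, 162 of 379 lincRNAs (42.7%) and 177 of 470 antisense RNAs (37.7%) against 3320 of 14221 protein-coding genes (23.3%). In the other direction 17 lincRNAs, 27 antisense RNAs and 528 coding genes were higher. Processed pseudogenes, whose reads cannot be told from those of their parent genes, had 74 of 935 higher (7.91%) and 30 lower, with a median of 0.49. Among coding genes the difference fell off with transcript length: the median was 0.23 for 549 genes up to 1 kb and -0.26 for 3229 genes over 6 kb, and the share called higher was 9.29% in the shortest and 1.02% in the longest class. The share called lower was 27.9% in the shortest and 24.9% in the longest class. Of 54 immunoglobulin variable genes 46 were lower (median -4.42).

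The depletion seen at day 5 was largely present in contralateral kidneys, while fewer genes were enriched there. The 2 comparisons share no library, but they come from 1 fit. The labels do not say whether contralateral kidneys came from the same mice as day 5 kidneys, and the fit took the libraries as independent. In contralateral kidneys 198 genes were higher in PT (1.16%) and 3925 lower (22.9%), 24.1% in all. Shared lower genes numbered 3157, which is 77.4% of the day 5 list and 80.4% of the contralateral list. Shared higher genes numbered 115, which is 16.7% of the day 5 list and 58.1% of the contralateral one. No first-segment gene was called in contralateral kidneys, where the median was 0.81, and 2 of 39 carriers were higher there (median 0.59). Across all genes the 2 sets of differences had a Pearson correlation of 0.84 and a Spearman correlation of 0.83, given as a description over 17110 genes that are not independent.

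The difference between states was tested directly. PT over Total was higher at day 5 than in contralateral kidneys for 517 genes (3.02%) and lower for 213 (1.24%), together 4.27% of those tested, and 2494 genes (14.6%) had an unadjusted p under 0.05. In 278 of the 517 the gene was lower in contralateral PT and uncalled at day 5, in 181 it was lower in both, and 11 turned over from lower to higher. Another 34 were uncalled in both states and 13 were uncalled in contralateral kidneys and higher at day 5. Of the 213, 116 were uncalled in contralateral kidneys and lower at day 5, and 68 were lower in both. With limma on the deposited RPKM the split turned round, to 139 higher and 603 lower. None of the first-segment genes, carriers, endocytosis genes or fatty acid oxidation genes was among the 730, and their median change was between 0.08 and 0.32.

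Among injury genes 15 of 43 were higher at day 5 by this test and 3 lower. Sox9 averaged 76.1 CPM in PT and 39.4 CPM in Total at day 5 and 0.574 CPM in PT and 2.35 CPM in Total in contralateral kidneys, a change of 3.34 ± 0.63, adjusted p = 0.000462. Vcam1 averaged 638 CPM in PT and 262 CPM in Total at day 5 and 3.05 CPM in PT and 5.64 CPM in Total in contralateral kidneys, a change of 2.17 ± 0.30, adjusted p = 3.51e-06. Havcr1 averaged 1919 CPM in PT and 901 CPM in Total at day 5 and 12.5 CPM in PT and 21.0 CPM in Total in contralateral kidneys, a change of 1.84 ± 0.31, adjusted p = 6.69e-05. For all 3 PT over Total was above 0 at day 5 and below 0 in contralateral kidneys, where levels were far lower and where Vcam1 (-0.87) and Havcr1 (-0.75) were not called. Runx1 (3.32), a haematopoietic factor also switched on in injured tubules, the cadherin Cdh6 (2.43), the hyaluronan receptor Cd44 (1.94), Anxa2 (2.55), Anxa3 (2.09), galectin 3, Lgals3 (2.36), Vim (1.82) and Cp (2.39) changed the same way, and their PT over Total lay between -0.56 and 0.82 at day 5 and between -3.34 and -1.67 in contralateral kidneys. Keratin 19 and Lcn2 did the opposite: Krt19 was -0.39 in contralateral kidneys and -3.67 at day 5, a change of -3.28 ± 0.40, adjusted p = 2.33e-07, and Lcn2 changed by -2.88 ± 0.52, adjusted p = 0.000276. Spp1 changed by 1.07 ± 0.34, adjusted p = 0.0522 and was not called. With limma on log2(RPKM + 1) Sox9 (1.23, adjusted p = 0.104), Runx1 (0.02, adjusted p = 0.977), Cdh6 (0.40, adjusted p = 0.532), Cd44 (0.23, adjusted p = 0.778) and Birc3 (0.84, adjusted p = 0.13) were not called. Adding 1 pulls the log2 differences of low genes toward 0, and whether that is why these calls were lost was not tested.

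**Figure D4:**
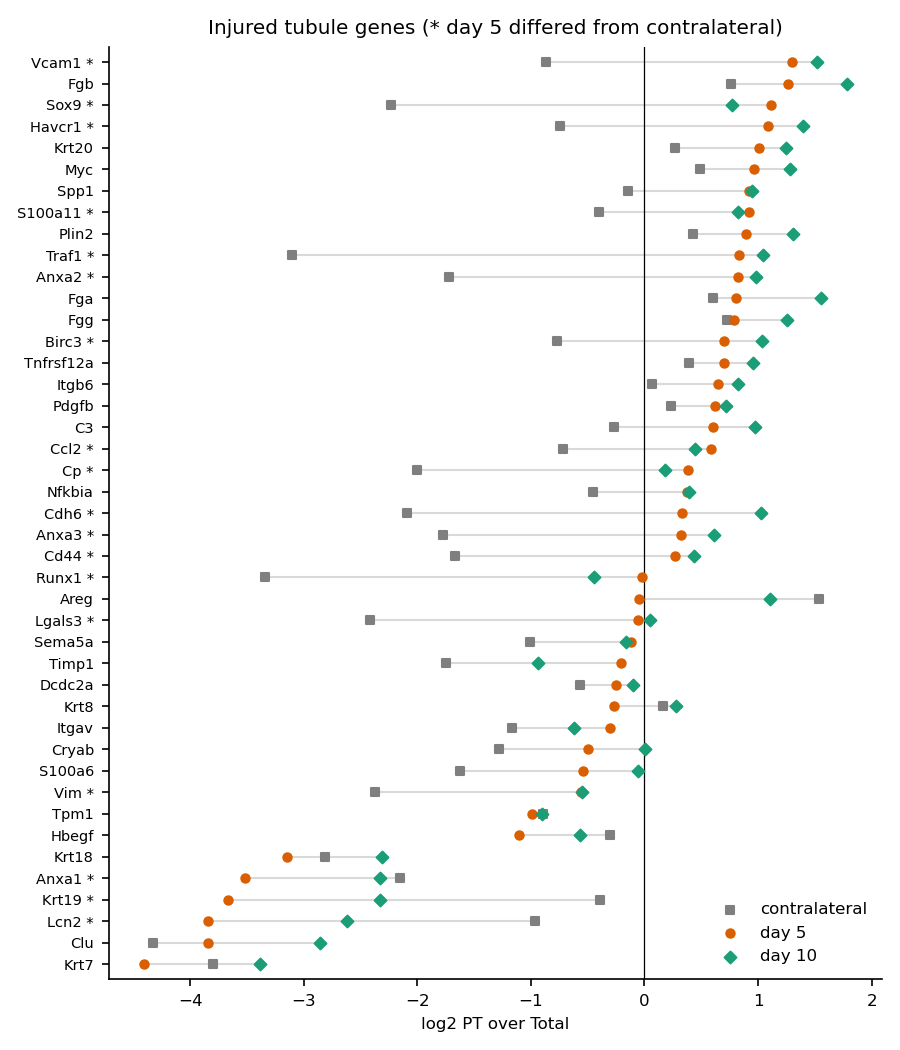
Log2 difference of PT over Total (x axis) for the 43 injury genes (y axis) in contralateral kidneys (grey squares), at day 5 (orange circles) and at day 10 (green diamonds); an asterisk marks the 18 whose difference at day 5 differed from the contralateral one. Sox9, Traf1, Runx1 and Vcam1 lie to the left in contralateral kidneys and near or above 0 at day 5, while Lcn2 and Krt19 move to the left.

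Several of the 10 largest upward changes over all genes were of signalling genes with few counts in contralateral PT. Steap4, a metalloreductase, had 1 count in all contralateral PT libraries together and 82 in Total, and 1.17, 3.62 and 10.4 CPM in PT against 1.99, 3.50 and 5.70 CPM in Total at day 5, where it was not called (0.09 ± 0.35, adjusted p = 0.843). Rgs4, a regulator of G protein signalling, changed by 4.73 ± 0.61, adjusted p = 9.11e-07, the NF-kB adaptor Traf1 by 3.94 ± 0.34, adjusted p = 8.28e-11, the stress kinase Mapk11 by 4.08 ± 0.38, adjusted p = 5.63e-10 and the small GTPase Rhou by 3.80 ± 0.34, adjusted p = 2.82e-10. At day 5 these lay between 0.27 and 0.84, with Traf1 the only one whose libraries were apart. Rasd2 (4.20), the lipid kinase subunit Pik3r5 (4.17), Slc44a3 (3.98) and the folate enzyme Aldh1l2 (3.48) changed likewise. With limma on log2(RPKM + 1) Steap4 (0.17, adjusted p = 0.799), Rgs4 (0.79, adjusted p = 0.143), Aldh1l2 (0.23, adjusted p = 0.377), Mapk11 (0.82, adjusted p = 0.000781) and Pik3r5 (-0.16, adjusted p = 0.662) were not called. Larp1b (3.58) was different, since it was near 0 in both fractions at day 5, at 0.2 CPM in PT and 0.294 CPM in Total.

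Among the 10 largest downward changes were genes of vessel and stromal cells. Gucy1a3, a subunit of the nitric oxide receptor found in pericytes, had 2.80, 4.06 and 5.84 CPM in PT and 88.2, 127 and 144 CPM in Total at day 5, against means of 10.2 CPM in PT and 19.5 CPM in Total in contralateral kidneys (-3.95 ± 0.29, adjusted p = 3.15e-12). Its partner Gucy1b3 changed by -3.79, the collagen Col8a1 by -3.69 ± 0.27, adjusted p = 3.15e-12, the phospholipase-like Plbd1 by -3.70, the anion carrier Slco2b1 by -4.04, Pstpip1 by -3.44 and the arginine carrier Slc7a2 by -3.27. Col8a1 and Plbd1 were above 0 in contralateral kidneys, uncalled, and more than 8-fold depleted at day 5. Ear2, an eosinophil ribonuclease, and Arhgap36 had 6 and 24 counts in contralateral PT and 2 and 13 in contralateral Total, so their fitted changes of -6.48 and -5.55 rest on almost no contralateral RNA. The matrix list had 1 gene with an upward and 3 with a downward change.

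Members of signalling lists were among the changed genes, where 3.02% of all genes were higher at day 5 and 1.24% lower. With limma on the deposited RPKM that split was 139 higher and 603 lower. Of the genes named next, only Birc3 and Ccl2 were looked at singly under that setting. By the test of the difference 8 of 25 NF-kB genes were higher at day 5, among them Cd40 (2.66), Tnfrsf1b (2.16), Relb (1.59) and Birc3 (1.48), and none was lower. Of 22 immediate early genes 7 were higher, with Klf4 (3.28), Ier3 (2.89) and Egr1 (2.52) foremost. Of 28 interferon genes 5 were higher, Gbp2 (2.15) and the proteasome subunit Psmb8 (2.13) among them. In the profibrotic list 5 were higher and 1 lower, the higher ones including Bmp2 (3.50), Edn1 (1.97) and Tgfb2 (1.96). Each of those was called lower in contralateral PT except Relb and Birc3. Podocyte genes had 4 of 14 higher, with Wt1 (1.62) and Nes (1.56) among them. Ccl2 changed by 1.30 ± 0.38, adjusted p = 0.0363, a call that was lost without any of 9 libraries and under voom (1.30), RLE factors (1.21) or no filter (1.24).

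At day 10 1208 genes were higher in PT (7.06%) and 3942 lower (23%), 30.1% in all, and the comparison shares no library with day 5. Against the 688 higher genes of day 5 this is more, but that count reached 1171 with a single day 5 library left out and was 927 or more without most of them. Few single genes differed between the days by test. Of the day 5 genes, 498 of 688 higher ones (72.4%, and 41.2% of the day 10 list) and 3602 of 4077 lower ones (88.3%, and 91.4% of the day 10 list) were called the same way. The carrier list had 26 of 39 higher at day 10 with a median of 1.32, and all but 1 of the 12 first-segment genes were higher there (median 1.59). Slc34a1 was at 1.80 at day 10, Hnf4a at 1.26 and Havcr1 at 1.39.

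The test of the difference between day 5 and day 10 called 0 genes higher at day 5 and 4 lower (0.0234%), with 1071 genes (6.26%) at an unadjusted p under 0.05. The count was 14 without female PT 1 of day 10 and as low as 2 without other single libraries. Among the 4 were Gsn, an actin-severing protein (-1.74 ± 0.34, adjusted p = 0.0408), the claudin Cldn7 (-1.53 ± 0.24, adjusted p = 0.00291) and hexokinase Hk1 (-1.30 ± 0.24, adjusted p = 0.0257). Cldn7 had 6.94, 8.11 and 9.82 CPM in PT and 37.4, 51.9 and 88.8 CPM in Total at day 5, and means of 24.4 CPM in PT and 61.7 CPM in Total at day 10. All 4 were depleted in both states, more so at day 5. The calls of Gsn and Hk1 were lost when any of 21 and any of 13 of the 28 libraries was left out, at -1.78 to -1.56 for Gsn and -1.27 to -1.11 for Hk1. Among carriers and injury genes the difference between the days was not called, which does not show that the days are alike.

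Both sexes gave much the same comparison. In females 724 genes were higher in PT (4.23%) and 3478 lower (20.3%), 24.6% in all, and in males 603 were higher (3.52%) and 3758 lower (22%), 25.5% in all. The female and male comparisons share no library, and across genes their Pearson correlation was 0.89 and their Spearman correlation 0.82. Slc34a1 was at 1.18 in females and 1.21 in males, Havcr1 at 1.12 in females and 1.06 in males, and Slc7a12 at -3.86 in females and -2.59 in males, none of which differed by the test between the sexes. Of 23 genes listed as sex-biased in the kidney, 7 were higher in PT and 6 lower, with the acetyltransferase Nat8 (1.51 ± 0.21) and the fatty acid hydroxylase Cyp4a12b (1.49 ± 0.27, whose reads its near copy Cyp4a12a can share) highest, and 1 of the 23, Ugt8a, differed between the sexes.

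The difference between the sexes itself was called for 4 genes, all lower in females (0.0234% of those tested), with none higher and 679 genes (3.97%) at an unadjusted p under 0.05. Chst11, a sulfotransferase of chondroitin synthesis, had 0.307, 0.37 and 0.488 CPM in the 3 female PT libraries and 3.32, 3.56 and 4.19 CPM in the 3 female Total libraries, while the 4 male PT libraries had 9.42, 10.4, 12.7 and 18.1 CPM and the 4 male Total libraries 8.94, 10.3, 10.4 and 14.5 CPM, a difference of -3.41 ± 0.44, adjusted p = 4.69e-05. Ugt8a, the enzyme that makes galactosylceramide, had 0.844, 1.40 and 1.46 CPM in female PT and 7.04, 7.37 and 10.1 CPM in female Total, while male PT had 27.8, 28.9, 33.5 and 40.8 CPM and male Total 26.9, 29.4, 32.8 and 41.3 CPM, a difference of -2.71 ± 0.45, adjusted p = 0.0029. In females both genes were depleted in every PT library, and in males PT and Total overlapped. Csgalnact1, which starts chondroitin chains, followed (-2.20 ± 0.40, adjusted p = 0.0111), with 0.975, 1.15 and 1.40 CPM in female PT and 8.42, 9.37, 9.40 and 11.5 CPM in male PT. Its call was lost without female PT 1, female PT 2 or female Total 1, at -2.03 to -2.19. Qpct, glutaminyl cyclase, was at -5.40 in females and -1.10 in males (-4.30 ± 0.69, adjusted p = 0.00243), a rare RNA that stayed under 8 CPM in all 14 libraries. With limma on log2(RPKM + 1) none of the 4 was called, at -0.66 for Chst11 and -0.63 for Csgalnact1 (adjusted p = 0.861 for both), -1.19 for Ugt8a (adjusted p = 0.515) and -1.31 for Qpct (adjusted p = 0.0829), and voom did not call Ugt8a (adjusted p = 0.17) or Csgalnact1 (adjusted p = 0.294).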

How the data were processed

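Bead-bound (PT) and Total RNA of mouse kidneys was sequenced in 42 libraries, 14 of them at day 5. The deposited counts are the authors' raw read counts per gene symbol, 40701 in all, and the deposited RPKM values are the authors' own scaling of them by gene length and depth. STAR 2.0.4b, Subread and featureCounts 1.4.5 are named in the submitters' processing notes, while the genome build and the strand setting are not given in the sources used here. Each gene was tested in edgeR 4.0.16 (R 4.3.3) by the quasi-likelihood test with robust dispersions, on counts of all 42 libraries. The fit had 1 group for each sex, state and fraction, TMM factors and the filterByExpr filter by group, which left 17110 genes, and 12632 symbols had no count in any library. PT against Total at day 5, in each state and each sex, and the differences between states and sexes gave 8 comparisons, each with p-values adjusted by Benjamini and Hochberg over all genes tested. Standard errors are the log2 difference over the square root of its F statistic. DESeq2 1.42.0, limma 3.58.1 with voom, and limma on log2(RPKM + 1) with RPKM as the authors deposited it were alternatives. The test was tried on simulated counts with known changes. Gene types and exon overlaps came from GENCODE M21 by symbol (39727 symbols matched), which may not be the annotation the authors counted with.

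The genes, the 39 lists and the tests were chosen with earlier results of these data known, so no list is independent evidence. Genes were named by a rule, of which not every gene is printed: 26 markers, the 15 largest called day 5 differences each way without overlap within either sex and with at least 5 CPM in a group, the 10 largest changes against contralateral kidneys each way, the 5 largest each way between days and between sexes, the 4 largest called each way in each list, and the 3 most abundant markers of each other cell type. Every other gene named, such as G6pc or Runx1, and the promoters printed were chosen after their values were seen. Some genes are not reported here. Intervals and floors cover counting error only, since reads without molecular identifiers are not independent molecules. Alternatives that split libraries by Lars2 at 5000 CPM or by sex were added after the data were seen. With Lars2 over 5000 CPM, female PT 3 was the only female PT library of day 5 left, so values of that split rest partly on it.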

Additional observations from a re-analysis of the deposited data

Results flagged for a closer look

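PT over Total differed between day 5 and contralateral kidneys by a test of the difference itself for 517 genes that were higher and 213 that were lower. The 10 largest upward log2 differences, day 5 minus contralateral, were of Steap4 (5.74), Rgs4 (4.73), Rasd2 (4.20), Pik3r5 (4.17), Mapk11 (4.08), Slc44a3 (3.98), Traf1 (3.94), Rhou (3.80), Larp1b (3.58) and Aldh1l2 (3.48). The 10 largest downward ones were of Ear2 (-6.48), Arhgap36 (-5.55), Slco2b1 (-4.04), Gucy1a3 (-3.95), Gucy1b3 (-3.79), Plbd1 (-3.70), Col8a1 (-3.69), Pstpip1 (-3.44), Krt19 (-3.28) and Slc7a2 (-3.27). Among injury genes the same test separated the states for Sox9 (3.34), Runx1 (3.32), Anxa2 (2.55), Cdh6 (2.43), Cp (2.39), Lgals3 (2.36), Vcam1 (2.17), Anxa3 (2.09), Cd44 (1.94), Havcr1 (1.84), Vim (1.82), Birc3 (1.48), S100a11 (1.32), Ccl2 (1.30), Anxa1 (-1.37) and Lcn2 (-2.88).

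Day 5 and day 10 differed for 4 genes, all lower at day 5, among them Gsn (-1.74), Cldn7 (-1.53) and Hk1 (-1.30). The sexes differed at day 5 for 4 genes, all lower in females: Qpct (-4.30), Chst11 (-3.41), Ugt8a (-2.71) and Csgalnact1 (-2.20). None of these 4 was called with limma on log2(RPKM + 1).

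Single libraries stood apart from the other 3 of their group in 5 of 130 groups of 4 male libraries examined over 65 genes, where chance would give about 6.5, or 1 in 20. That rate holds for 4 interchangeable libraries, but the male libraries fell into pairs, and all 65 genes share them. The 5 and the 6.5 therefore cannot be weighed against each other. In male PT 3 Lrp2 reached 132.6 CPM and Cubn 29.6 CPM, above the others of male PT, and in male PT 1 Vcam1 was lowest at 538 CPM. In male Total 1 Hnf4a was highest at 186 CPM, and in male Total 3 Hbb-bs was highest at 39.4 CPM.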

How the results depend on the processing

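For PT against Total at day 5, 4765 genes were called, and the lower calls outnumbered the higher ones under each alternative run. The count was 2605 among genes with at least 5 CPM in 3 libraries, 9162 without a fold threshold (3873 higher, 5289 lower), 2831 at 4-fold and an adjusted p under 0.01, 1839 with limma on log2(RPKM + 1), 2844 in the 4 male libraries with Lars2 under 5000 CPM, and 4700 to 5161 when single libraries were left out. Against contralateral kidneys it was 730, but 257 at 4-fold, 455 with day 5 libraries over 5000 CPM of Lars2 and 667 to 781 with a library left out. Between the days, 4 genes became 20 with the replicate block, 11 with RPKM, 2 in the fit of only the groups compared, 0 at 4-fold, 0 with Lars2 over 5000 CPM and 2 to 14 with a library left out. Between the sexes, 4 became 37 with the replicate block (7 higher), 7 with Lars2 as a covariate, 13 with DESeq2 (3 higher), 2 with voom, 10 in the fit of only the groups compared and 3 to 5 with a library left out. The cause of these shifts was not tested, apart from fewer genes or libraries where the alternative itself left them out.

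Same-numbered PT and Total libraries were compared by their deviations from their group means, in log2 CPM over genes averaging at least 5 CPM. These deviations correlated beyond 0.1 in 5 of 7 day 5 pairs (-0.27 to 0.82, the own number best in 5). In contralateral kidneys 7 of 7 pairs did, and at day 10 6 of 7. At day 5 male 1 and male 3 failed. Their PT and Total lay on opposite sides of 5000 CPM of Lars2, as did those of female 1 and female 2, which passed. Since the labels give no pairing and not every day 5 pair passed, the numbers were not taken as pairs, which does not show that the libraries are unpaired. The block moved the day 5 count to 4856, and to 4291 within day 5 alone. In males alone Chst11 (0.19) and Ugt8a (0.0069) were above 0, and so was Chst11 in males with Lars2 under 5000 CPM (0.20). Against contralateral kidneys Pik3r5 was at -0.16 with RPKM and Larp1b at -0.14 with Lars2 over 5000 CPM. At 10.2 to 23.8 M counts a library, a gene near 0.1 CPM gives about 1 or 2 reads, so rare genes are limited by depth.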
